A study of Homo sapiens with 16 samples.

Results

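MALAT1, NEAT1, TUG1, MEG3, H19, GAS5, SNHG1 and KCNQ1OT1 were followed by gene symbol in read counts of 2 glioblastoma cell lines. These 8 long noncoding RNAs are among 20314 genes in the U251 tables and 20626 in the U343 tables, and all 8 are listed in both. Long noncoding RNAs are transcripts that act without being translated. MALAT1 and NEAT1 stay in the nucleus, where MALAT1 is found in nuclear speckles, the stores of splicing factors, and NEAT1 is the scaffold of paraspeckles. KCNQ1OT1, MEG3 and H19 come from imprinted loci, in which only the copy from a given parent is active. GAS5 and SNHG1 are host genes: their introns hold small nucleolar RNAs (snoRNAs), and their spliced transcripts carry a poly(A) tail and are short-lived. The poly(A) binding protein PABP coats the tails of messenger RNAs in the cytoplasm. MALAT1 and the long form of NEAT1 end instead in a triple helix made when RNase P cuts the transcript, while the short form of NEAT1 ends in a poly(A) tail.

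Total RNA (RNASeq) and RNA recovered with antibodies against PABP (RIPSeq) were sequenced from U251 and U343, established human glioblastoma cell lines. Before collection at 48 hours the cells had received 25 nM of either the control mimic or the mimic of miR-137. Each of the 8 combinations of cell line, assay and mimic holds 2 libraries, 16 in all. All groups share the transfection and the depletion of ribosomal RNA with RiboZero, and the methods describe no selection for poly(A) tails in making cDNA. U251 cDNA was made with EpiScript and random hexamers and U343 cDNA with the TotalScript kit, for which the methods name no primer. The cell line and the kit therefore cannot be told apart. The labels do not say whether the 2 libraries of a group came from separate cultures, so the p-values measure only the spread between these libraries.

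The U251 libraries held between 10156675 and 30731476 counted reads and the U343 libraries between 37736206 and 45134766. Levels are given as CPM, the share of the counted reads expressed in parts per 1e+06, with library totals scaled by TMM factors over the 8 libraries of a cell line. Limits from read counts cover counting error only, since the reads carry no molecular identifiers. In bulk samples, fewer cells that make an RNA and less of it per cell cannot be told apart. Among the 8 glioma cell markers examined, VIM, the intermediate filament vimentin, was at a mean of 7784.0 CPM in the U251 RNASeq controls and 5656.1 in those of U343, and the astrocyte filament GFAP at 30.4 and 4428.9. The water channel AQP4 had no read in the U251 RNASeq controls and was at 21.4 CPM in those of U343. S100B, at 1.66 and 3.78 CPM, and SOX2, at 105.3 and 578.4, were also higher in the U343 controls. The other way went NES, at 384.5 CPM in U251 and 127.6 in U343, CD44, at 3409.2 and 794.6, and SLC1A3, at 52.6 and 0.172. These levels were not tested between the cell lines. The summed level of 7 markers of other cells was between 0.682 and 3.83 CPM in the U251 libraries and between 11.1 and 36.2 in U343, most of the latter from CDH5, an endothelial cadherin. Some libraries stand apart from the other member of their group. Averaged over genes, the chi-square between the counts of a group's 2 libraries was 216 for the U251 RIPSeq controls and 175 for U343 RNASeq after miR-137, against 2.46 to 21.9 in the other 6 groups. The second difference includes genes induced by interferon. The summed level of 12 such genes was 104.4 to 191.5 CPM in the 8 control libraries and 10717.2 to 13323.6 in 7 of the miR-137 libraries, but 134.4 in U343 RNASeq miR-137 replicate 1. Beside the results that turn on them, values or counts are also given with 1 of these libraries left out, and the part of the interferon-induced genes in the miR-137 results was not tested.

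The mimic carries the mature miR-137. Its sequence is shown because the seed (bases 2 to 8, in capitals) is the part that pairs with target transcripts. It is RefSeq's hsa-miR-137-3p, on the minus strand of chr1:98046091-98046113 of GRCh38.p14.
hsa-miR-137-3p: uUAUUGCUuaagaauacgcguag

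The deposited positions are on hg18, in which MALAT1 lies on chromosome 11 from 65021809 to 65030513 and NEAT1 on the same arm from 64946845 to 64950577. The counted span of NEAT1 is 3733 bases, where RefSeq's gene on GRCh38.p14 is 22743 bases long, so the counts come from the start of the gene, which the short and the long form share. KCNQ1OT1 lies on the minus strand of chromosome 11, from 2618344 to 2677804, and all 59461 bases of it fall within KCNQ1, a potassium channel gene on the other strand. KCNQ1 itself had 35 reads over the 8 U251 libraries and 49 over the 8 U343 libraries. H19 lies near it, from 1972982 to 1975641, and SNHG1 on the long arm from 62376036 to 62379936. TUG1 is on chromosome 22, from 29695634 to 29705380, MEG3 on chromosome 14, from 100362198 to 100397121, and GAS5 on chromosome 1, from 172099662 to 172103748. RefSeq's current annotation gives TUG1 as protein coding and the other 7 as long noncoding RNAs. No use of strand in the counting is given in the sources used here, so reads of KCNQ1OT1 cannot be told apart from unspliced reads of KCNQ1.

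Of the 8 RNAs, 7 had enough reads for a test in U251 and 6 in U343. H19, a growth-related RNA of the fetus, was close to absent, with at most 9 reads in any library. MEG3, an RNA that restrains growth in many cell types, was measured in U251 with 53 to 668 reads per library. In U343 it had 0 to 4 reads per library, where a count of 0 allows up to 0.0795 CPM before scaling. MALAT1 alone took 0.0796% to 0.211% of all counted reads in U251 RNASeq and 0.0833% to 0.12% in U343 RNASeq. Levels between genes were compared only for the 3 RNAs whose span is largely unspliced, per kilobase of that span. In the U251 RNASeq controls MALAT1 was at 109.7 ± 18.1 CPM per kilobase (SD, n = 2), NEAT1 at 8.68 ± 5.95 and KCNQ1OT1 at 1.78 ± 0.351. The U343 controls gave the same order, with 91.8 ± 2.49, 8.82 ± 0.00868 and 0.874 ± 0.0255 CPM per kilobase.

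**Figure D1:**
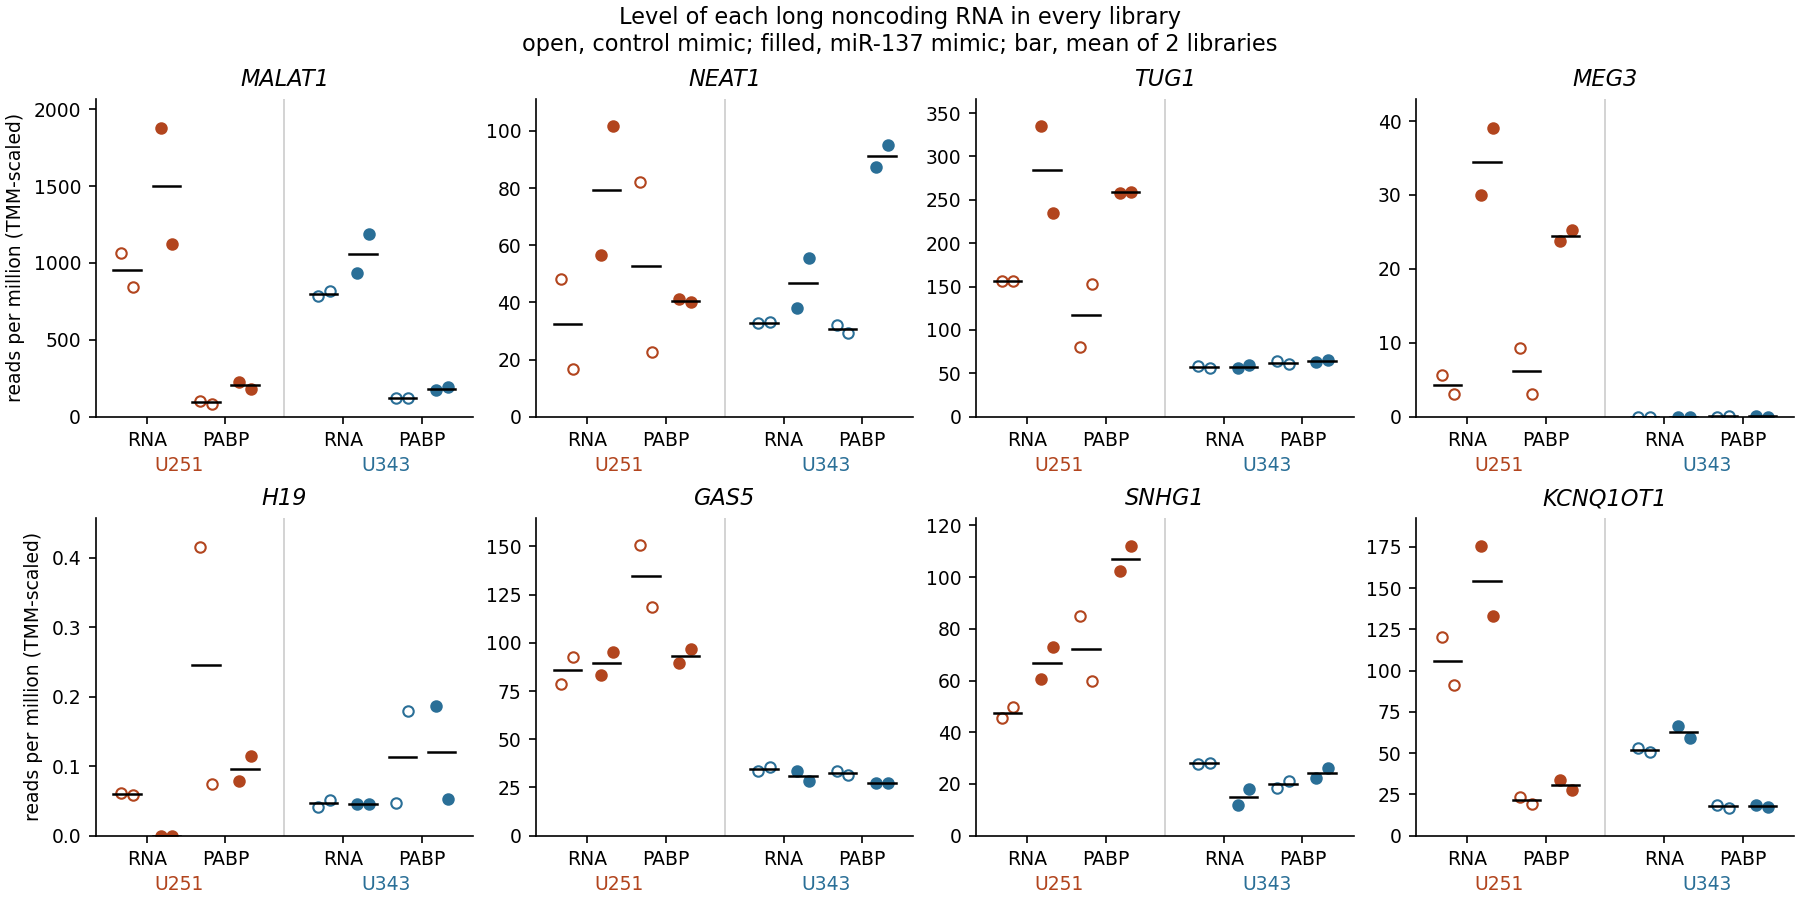
Level of each of the 8 RNAs in every library, as CPM scaled by TMM factors within a cell line (vertical axis, linear and from 0, a different range in each panel), for total RNA (RNA) and PABP-bound RNA (PABP) in U251 and U343. Points are libraries, open for the control mimic and filled for the miR-137 mimic, and bars are means of 2 libraries: MALAT1 and KCNQ1OT1 were lower in PABP-bound RNA throughout, and MEG3 was seen in U251 and not above 0.103 CPM in U343.

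The first comparison asked how much of each RNA was bound to PABP relative to its share of total RNA. The values are shares of each library, and the amount of RNA recovered by the antibodies was not used here. MALAT1 and KCNQ1OT1 were far lower in PABP-bound RNA in both cell lines and after either mimic. No other member was called lower by edgeR in any of the 4 comparisons. In the U251 controls MALAT1 was at 1065.8 and 843.3 CPM in total RNA and at 104.3 and 82 in PABP-bound RNA. The U343 controls had 784.1 and 814.7 CPM in total RNA and 120.4 and 122.2 in PABP-bound RNA. All PABP-bound libraries thus lay below all total RNA libraries, by 10.2-fold in the U251 controls (log2 difference -3.36 ± 0.31, SE) and 6.59-fold in the U343 controls (-2.72 ± 0.14). After the miR-137 mimic the differences were 7.35-fold in U251 and 5.83-fold in U343. The adjusted p of edgeR's quasi-likelihood test was between 9.49e-05 and 0.00142 in the 4 comparisons.

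KCNQ1OT1, which silences neighbouring genes in cis on the paternal chromosome, followed. It was at 120.5 and 91 CPM in total RNA and at 23.6 and 19.1 in PABP-bound RNA of the U251 controls. The U343 controls had 53 and 50.9 CPM against 18.7 and 16.8. Again no PABP-bound library reached a total RNA library. The difference was 4.96-fold in the U251 controls (log2 difference -2.31 ± 0.26, edgeR adjusted p = 0.00107) and 2.92-fold in the U343 controls (-1.55 ± 0.10, 0.000194). After the miR-137 mimic it was 5.05-fold in U251 and 3.53-fold in U343, with edgeR adjusted p of 0.00168 and 0.000146. The calls of MALAT1 and KCNQ1OT1 held under all alternatives run, including each library left out in turn. Among all genes tested, 0.95% had a lower log2 difference than MALAT1 in the U251 controls and 0.83% in the U343 controls, and for KCNQ1OT1 the shares were 2.3% and 2.13%.

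In the U251 controls, 2 of the 7 tested members were thus lower, where 18.2% of all 14210 genes were lower by edgeR, and 1 was higher, where 22.3% were. In the U343 controls 2 of 6 were lower against 15.7% of 15413 genes, and none was higher against 18.2%. In the U343 controls 3 members had an unadjusted p under 0.05, and DESeq2 called 3. After the miR-137 mimic 2 of 7 were lower in U251 against 12.6%, and none was higher against 12.2%, with 3 at an unadjusted p under 0.05 and 3 DESeq2 calls. In U343 2 of 6 were lower against 16.8% and 2 were higher against 18.4%. The members' median log2 difference was 0.50 in the U251 controls, where the median of all genes was 0.07, and -0.30 in the U343 controls, where it was 0.00.

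**Figure D2:**
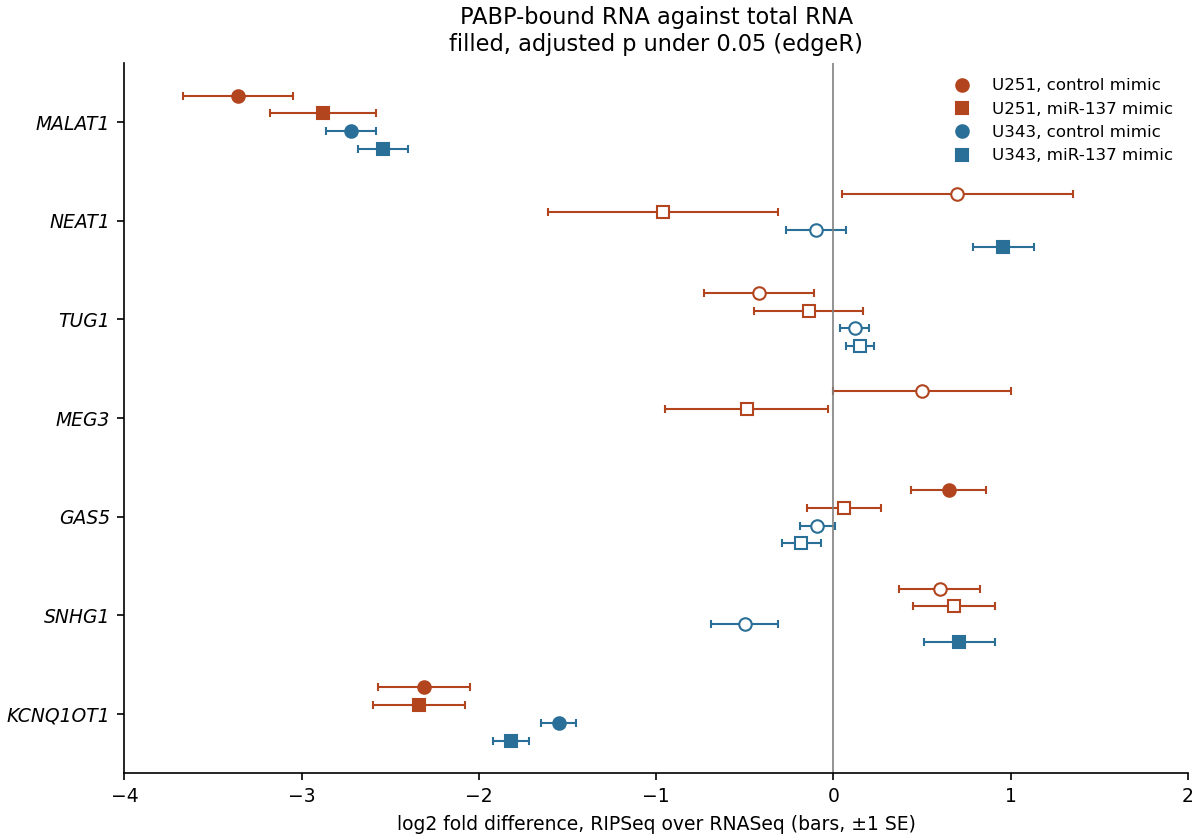
Log2 fold difference of PABP-bound RNA over total RNA (horizontal axis) for the 7 members tested, in U251 and U343 after the control or the miR-137 mimic. Points are edgeR estimates with bars of 1 SE, filled where the adjusted p was under 0.05; MALAT1 (-3.36 to -2.54) and KCNQ1OT1 (-2.34 to -1.55) lie left of 0 in all 4 comparisons, and the other members lie between -0.96 and 0.96.

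None of the remaining members was called lower in PABP-bound RNA. NEAT1 was uneven in U251. Its controls had 48.1 and 16.7 CPM in total RNA and 82.3 and 22.8 in PABP-bound RNA, so that replicates differed 2.88-fold and 3.61-fold. No difference between the assays could be called there (log2 difference 0.70, 95% interval -0.81 to 2.20). The direction turned with the RIPSeq control kept: it was -0.53 without replicate 1 (edgeR adjusted p = 0.371) and 1.23 without replicate 2 (0.019). In the U343 controls NEAT1 was even, at 32.9 and 33 CPM in total RNA and 32.2 and 29.4 in PABP-bound RNA (-0.10, 95% interval -0.50 to 0.30). TUG1, an RNA found in nucleus and cytoplasm, was at 156.3 and 156.5 CPM in total RNA of the U251 controls and at 80.8 and 153.0 in PABP-bound RNA. The U343 controls had 58.7 and 56.1 CPM against 64.1 and 60.5. The log2 difference of TUG1 was -0.42 in the U251 controls, with an interval of -1.15 to 0.31, and the interval in the U343 controls was -0.07 to 0.30. Without RIPSeq control replicate 1 the U251 value was -0.05 (edgeR adjusted p = 0.807), and without replicate 2 it was -1.07 (0.000205). MEG3 in the U251 controls was at 5.58 and 3.08 CPM in total RNA and at 9.23 and 3.08 in PABP-bound RNA (log2 difference 0.50, 95% interval -0.65 to 1.65). For MEG3 too the direction turned, with -0.51 without RIPSeq control replicate 1 (edgeR adjusted p = 0.208) and 0.98 without replicate 2 (0.00608).

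The host gene GAS5, named for its accumulation in growth-arrested cells, was higher in PABP-bound RNA of the U251 controls, at 150.8 and 118.4 CPM against 78.7 and 92.8 in total RNA. The rise was 1.57-fold (log2 0.65 ± 0.21, edgeR adjusted p = 0.041), and it was lost under 4 of the 7 other settings, with adjusted p from 0.059 to 0.203 there. It also lost the threshold when any 1 of the 4 U251 RNASeq libraries or of the 2 RIPSeq miR-137 libraries was left out (adjusted p from 0.109 to 0.294), and kept it without either RIPSeq control. GAS5 in the U343 controls had 33.3 and 35.8 CPM in total RNA and 33.4 and 31.7 in PABP-bound RNA, and the groups overlapped (-0.09, 95% interval -0.33 to 0.16). SNHG1 went from 45.4 and 49.7 CPM to 84.8 and 59.9 in the U251 controls (log2 0.60 ± 0.23, adjusted p = 0.0675 in edgeR). Its log2 difference ran from 0.31 to 0.72 over each library left out in turn, and was 0.72 without RIPSeq control replicate 2. For U343 it went from 27.9 and 28.2 CPM in the controls to 18.5 and 21.1 (-0.50 ± 0.19, adjusted p = 0.0883 in edgeR). With all libraries neither value passed the threshold. The U343 value passed it in 4 of the 7 other settings, with adjusted p from 0.0037 in an edgeR fit of the 4 libraries alone to 0.0485 with the replicate number as a block.

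The snoRNAs in the introns of these hosts gave a contrast within a locus. They are trimmed from introns and have no poly(A) tail. The summed level of the 10 GAS5 snoRNAs was 12.4 and 9.71 CPM in total RNA of the U251 controls and 1.25 and 4.23 in PABP-bound RNA. For the 8 SNHG1 snoRNAs it was 12.8 and 10.3 CPM against 1.85 and 2. Of those with enough reads, 6 of 8 from GAS5 and 6 of 6 from SNHG1 were lower with PABP in the U251 controls, where 18.2% of all genes were. In the U343 controls edgeR called 4 of 4 and 5 of 5, against 15.7% of all genes, while DESeq2 called 1 of each. The U343 RIPSeq controls held only 30 and 16 reads over the GAS5 snoRNAs and 7 and 13 over those of SNHG1. After the miR-137 mimic fewer passed in edgeR, with 4 of 8 from GAS5 and 2 of 6 from SNHG1 in U251, against 12.6% of all genes. In U343 edgeR called 4 of 4 and 2 of 5, against 16.8% of all genes, and DESeq2 called 2 and 0. SNORD76 of GAS5 was lower by 3.63 on a log2 scale in the U251 controls (log2 difference -3.63 ± 0.50, edgeR adjusted p = 0.00192) and SNORD25 of SNHG1 by less (-2.45 ± 0.37, 0.00261). They lie within their hosts' span, and the handling of reads shared by overlapping genes is not given in the sources used here.

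Other RNAs known to lack a poly(A) tail were lower with PABP too. Replication-dependent histone messenger RNAs end in a stem-loop, and 51 of 51 tested were lower in the U251 controls and 52 of 52 in the U343 controls, with median log2 differences of -5.17 and -3.99. Of the short RNAs made without a tail, 10 of 10 and 7 of 8 were lower, with medians of -4.71 and -2.59. MALAT1 and KCNQ1OT1 lay above these medians in the U251 controls. In the U343 controls MALAT1, at -2.72, lay just below the median of the short RNAs. RPPH1, the RNA of RNase P, fell from 718.0 and 1003.6 CPM to 11.6 and 9.33 in the U343 controls.

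Of the 24 other long noncoding RNAs in the tables, 23 were tested in either line. In the U251 controls 5 were lower with PABP and 1 higher, where 18.2% of all genes were lower and 22.3% higher. Their median log2 difference was 0.15. In the U343 controls 6 were lower and 1 higher, where 15.7% of all genes were lower and 18.2% higher, with a median of -0.19. TERC, the RNA template of telomerase, was lowest in both (log2 difference -4.53 ± 0.66 in U251 and -5.48 ± 0.36 in U343). PVT1 was higher in the U251 controls, at 495.0 and 360.2 CPM against 119.7 and 134.2, and SOX2OT was the RNA that was higher in the U343 controls (log2 0.44 ± 0.11). Among other snoRNA hosts, 1 of 12 was lower and 1 higher in the U251 controls, against the same shares of all genes. In the U343 controls 9 of 13 were lower and none higher, again against 15.7% and 18.2%. SNHG9 and SNHG5 were the lowest there (log2 difference -2.22 ± 0.25 and -1.76 ± 0.18). In those same U343 libraries GAS5 and SNHG1 were at -0.09 and -0.50.

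**Figure D3:**
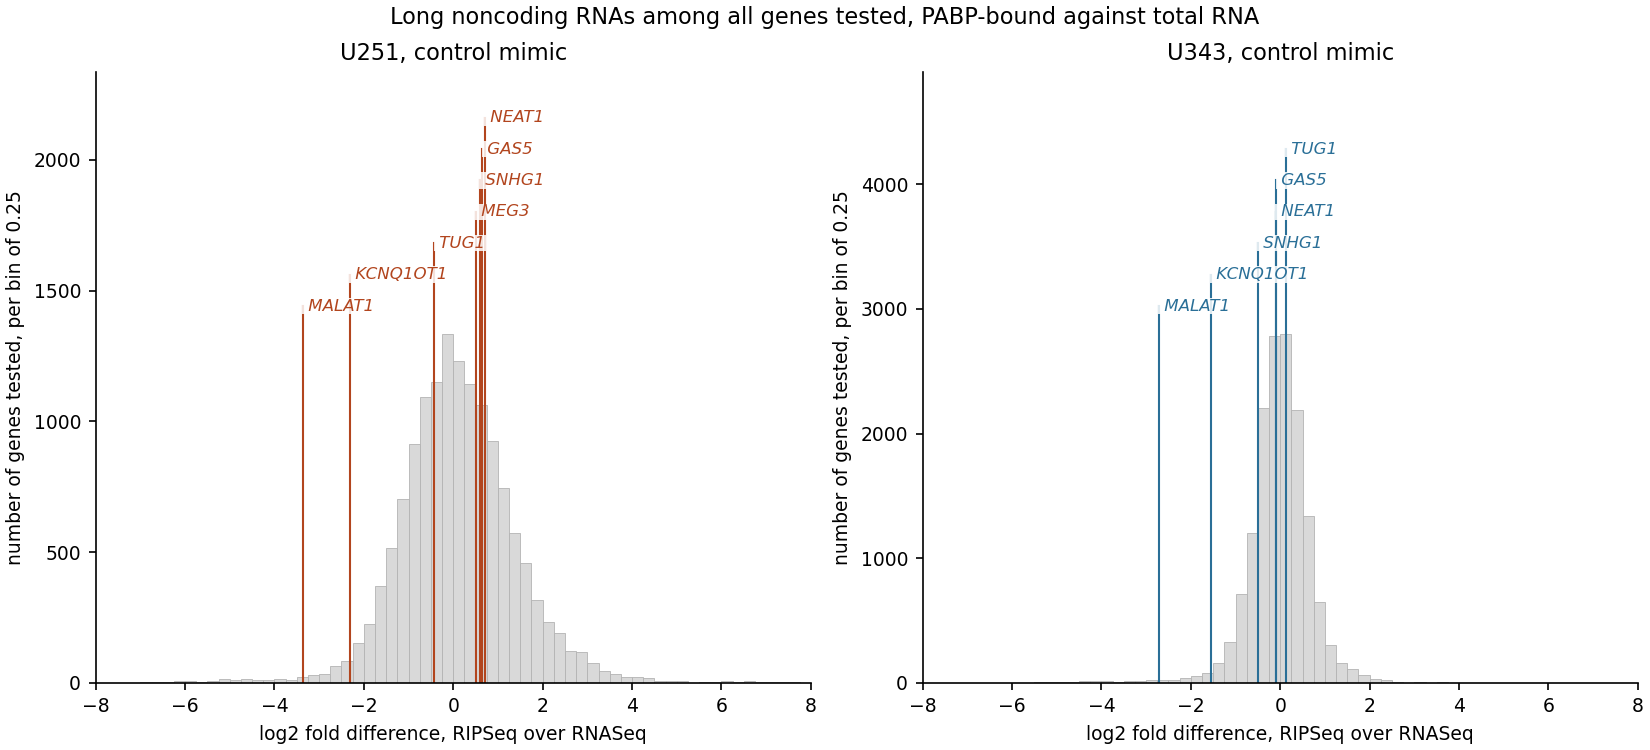
Distribution of the log2 fold difference of PABP-bound over total RNA for all genes tested (horizontal axis, grey bars of width 0.25, vertical axis the number of genes) after the control mimic in U251 (14210 genes) and U343 (15413 genes). Vertical lines mark the members; their heights only separate the names. MALAT1 lies at -3.36 and -2.72 and KCNQ1OT1 at -2.31 and -1.55, in the lower tail, and the other members lie near the middle.

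The second comparison asked how the RNAs responded to the miR-137 mimic. In total RNA of U251, 6 of the 7 tested members were higher after the mimic, where 28.7% of all 13052 genes were higher, and none was lower, where 29% were lower. Of the 12 interferon-induced genes, 12 were higher in this comparison, and 12 in U251 RIPSeq against 0.944% of all genes. In U343 RIPSeq 11 were higher, against 28.5% of all genes. In U343 RNASeq edgeR called 0, where 8.31% of all genes were higher. The median log2 difference there was 5.84, with 6 at an unadjusted p under 0.05 and 8 DESeq2 calls. Its 2 miR-137 libraries differed, at 134.4 and 12091.7 CPM summed over these genes. Of the members, MEG3 rose most in total RNA of U251, from 5.58 and 3.08 CPM in the controls to 30 and 39 after the mimic. The rise was 7.89-fold (log2 2.98 ± 0.23, edgeR adjusted p = 2.44e-07). NEAT1 went from 48.1 and 16.7 CPM to 56.6 and 101.7, a 2.42-fold rise (1.27 ± 0.35, edgeR adjusted p = 0.00706). Its size depended on single libraries, with a log2 difference of 2.22 without control replicate 1, 0.69 without control replicate 2, 1.64 without miR-137 replicate 1 and 0.78 without miR-137 replicate 2, all past the threshold. TUG1 rose 1.8-fold, from 156.3 and 156.5 CPM to 335.0 and 234.3 (0.85 ± 0.16, edgeR adjusted p = 0.000543). In these 3 RNAs no control library reached a miR-137 library, but the share of all genes with such an order is not given here.

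MALAT1 rose less, from 1065.8 and 843.3 CPM to 1879.6 and 1124.9 (log2 0.64 ± 0.21, edgeR adjusted p = 0.0204). KCNQ1OT1 went from 120.5 and 91 CPM to 175.5 and 133.3 (log2 0.53 ± 0.16, edgeR adjusted p = 0.0134). SNHG1 went from 45.4 and 49.7 CPM to 60.6 and 72.8 (0.47 ± 0.14, edgeR adjusted p = 0.00998). Their groups did not overlap either, with the smallest gap between the nearest libraries of the groups in MALAT1, at 1065.8 and 1124.9 CPM. GAS5 did not pass the test, with 78.7 and 92.8 CPM in the controls and 83.5 and 95 after the mimic, and its 95% interval of -0.25 to 0.33 on the log2 scale reaches up to a 1.26-fold rise. The members' median log2 difference was 0.64, where that of all genes was 0.02. MEG3 alone kept its call in a fit of all 8 U251 libraries, and MALAT1 and NEAT1 lost theirs under DESeq2 (adjusted p = 0.179 and 0.191). Without miR-137 replicate 1 the log2 difference of MALAT1 was 0.23 (edgeR adjusted p = 0.256), and without control replicate 2 it was 0.47 (0.0735). KCNQ1OT1 lost its call without the same libraries (0.33 in each, edgeR adjusted p = 0.0678 and 0.181). SNHG1 lost it without control replicate 1 (0.40, edgeR adjusted p = 0.0736) or miR-137 replicate 2 (0.33, 0.0787).

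In PABP-bound RNA of U251 no member passed the test, where 0.944% of 14087 genes were higher and 0.263% lower by edgeR. The unadjusted p was under 0.05 for 3 members, and DESeq2 called 2 of them. The 2 controls of this experiment are those that differed most from each other. MEG3 was at 9.23 and 3.08 CPM in the controls and at 23.7 and 25.3 after the mimic (log2 2.04, 95% interval 0.58 to 3.50, edgeR adjusted p = 0.158). TUG1 was at 80.8 and 153.0 against 258.0 and 259.4 CPM (1.17, 0.16 to 2.18, edgeR adjusted p = 0.206). MALAT1 was at 104.3 and 82 against 228.0 and 180.9 CPM (1.17, 0.48 to 1.85, edgeR adjusted p = 0.123). Every miR-137 library of these 3 RNAs lay above both controls, but the share of all genes with such an order is not given here. MEG3 and MALAT1 passed the threshold under DESeq2 (adjusted p = 0.00278 and 0.0492) and, with TUG1, in the fit of all 8 U251 libraries.

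NEAT1 showed no stable direction there. Its controls had 82.3 and 22.8 CPM and its miR-137 libraries 41.1 and 40, between the controls. The log2 difference was -0.33, 0.83 when control replicate 1 was left out and -0.87 when control replicate 2 was. With either control left out the other 6 tested members kept their direction. The log2 difference was then 2.99 or 1.56 for MEG3, 0.76 or 1.83 for TUG1 and 1.32 or 1.12 for MALAT1, without control replicate 1 or 2. In those fits the lone control is assumed to vary like the miR-137 pair, whose libraries are the most alike of any group. SNHG1 was at 84.8 and 59.9 against 102.4 and 112.1 CPM and GAS5 at 150.8 and 118.4 against 89.3 and 96.7. GAS5 is the member whose miR-137 libraries both lay below both controls (log2 -0.50, 95% interval -1.14 to 0.14, edgeR adjusted p = 0.344).

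In total RNA of U343 no member passed the test, where 8.31% of 15088 genes were higher and 11.7% lower by edgeR. The unadjusted p was under 0.05 for 3 members, and DESeq2 called 1, SNHG1. SNHG1 was at 27.9 and 28.2 CPM in the controls and at 11.8 and 17.9 after the mimic, with no overlap (log2 -0.90 ± 0.22, edgeR adjusted p = 0.0551). Its adjusted p was under the threshold in 4 of the 7 other settings, from 0.0025 to 0.049. MALAT1 was at 784.1 and 814.7 against 932.8 and 1190.7 CPM (0.42 ± 0.13, edgeR adjusted p = 0.0966), and NEAT1 at 32.9 and 33 against 38 and 55.7 (0.52 ± 0.20, edgeR adjusted p = 0.138). In both, miR-137 replicate 1, the library with low interferon-induced genes, was the nearer to the controls. Without it the log2 differences of MALAT1, NEAT1 and SNHG1 were 0.58, 0.76 and -0.65. Without replicate 2 those of SNHG1 and KCNQ1OT1 were -1.22 and 0.38. Over each library left out in turn, MALAT1 ranged from 0.25 to 0.58 and NEAT1 from 0.23 to 0.76. KCNQ1OT1 ranged from 0.18 to 0.38 and SNHG1 from -1.22 to -0.65. TUG1 was at 58.7 and 56.1 against 56 and 59.3 CPM, and its interval of -0.21 to 0.25 reaches up to a 1.19-fold rise.

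In PABP-bound RNA of U343, 2 of 6 members were higher after the mimic, where 28.5% of 14866 genes were higher, and 1 was lower, where 27.8% were. NEAT1 rose 3-fold, from 32.2 and 29.4 CPM to 87.5 and 95.1 (log2 1.58 ± 0.09, edgeR adjusted p = 9.84e-06). MALAT1 rose 1.52-fold, from 120.4 and 122.2 CPM to 171.3 and 193.0 (0.60 ± 0.09, edgeR adjusted p = 0.00113). Both calls held under all settings run. GAS5 fell from 33.4 and 31.7 CPM to 27.1 and 27.3 (-0.25 ± 0.09, edgeR adjusted p = 0.0404), and this call was lost under 6 of the 7 other settings, with adjusted p from 0.05 to 0.0952. SNHG1 was at 18.5 and 21.1 against 22.4 and 26.3 CPM (0.31 ± 0.12, edgeR adjusted p = 0.0574). TUG1 and KCNQ1OT1 had 95% intervals from -0.13 to 0.24 and from -0.23 to 0.25 on the log2 scale.

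**Figure D4:**
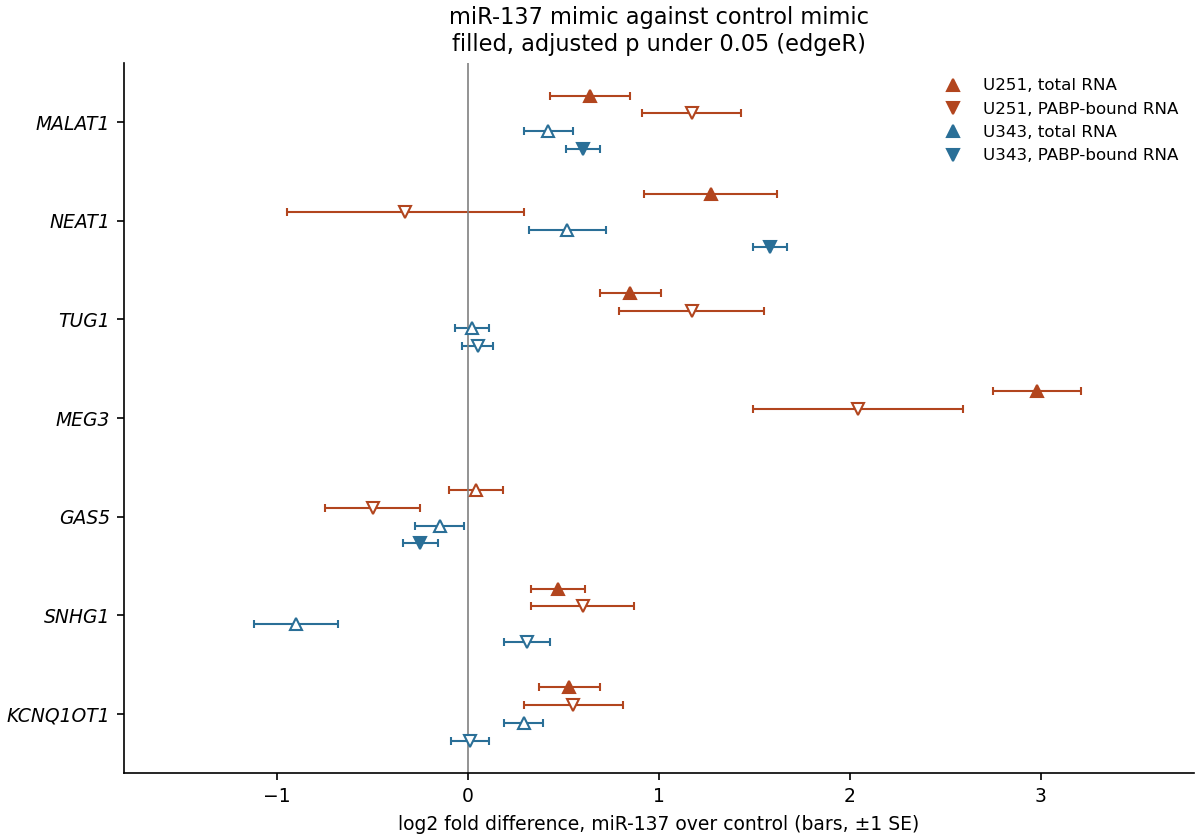
Log2 fold difference of the miR-137 mimic over the control mimic (horizontal axis) for the 7 members tested, in total and PABP-bound RNA of U251 and U343. Points are edgeR estimates with bars of 1 SE, filled where the adjusted p was under 0.05; MEG3 in U251 lies farthest right (2.98 in total RNA), NEAT1 ranges from -0.33 to 1.58, and SNHG1 in U343 total RNA (-0.90) lies farthest left.

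The study's own rule was also applied. It compares each control library with each miR-137 library by Fisher's exact test and calls a gene when the odds ratio is over 2 with an adjusted p under 0.001 in all 4 pairs, here in either direction. Its p-values compare pairs of libraries, not conditions. In U251 RNASeq MEG3 met it, with odds ratios from 6.19 to 15.5, as the 1 member of 8, where 8.35% of all genes did. In U251 RIPSeq MEG3 met it again, with 2.64 to 9.26, where 4.95% of all genes did. No member met it in U343 RNASeq, where 4.39% of genes did. In U343 RIPSeq NEAT1 met it, with 2.65 to 3.41, where 8.24% of genes did. No member was called lower by the rule in any of the 4 experiments.

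Whether the response differed between total and PABP-bound RNA was tested as an interaction of assay and mimic. No member passed in U251, where 0.134% of genes did by edgeR, nor in U343, where 0.00649% did. In U343 the unadjusted p was under 0.05 for NEAT1 and SNHG1, and DESeq2 called both. NEAT1 had a response 2.08-fold larger in PABP-bound RNA (log2 1.06, 95% interval 0.49 to 1.62, edgeR adjusted p = 0.196). For SNHG1 the ratio was 2.32-fold (1.21, 0.56 to 1.86, edgeR adjusted p = 0.196). Without RNASeq miR-137 replicate 2 the log2 values were 1.33 for NEAT1 and 1.52 for SNHG1, and without replicate 1 they were 0.82 and 0.95. After the mimic, PABP-bound libraries of both RNAs lay above the total RNA libraries in U343. NEAT1 was at 87.5 and 95.1 against 38 and 55.7 CPM (log2 0.96 ± 0.17, edgeR adjusted p = 0.00535) and SNHG1 at 22.4 and 26.3 against 11.8 and 17.9 (0.71 ± 0.20, edgeR adjusted p = 0.0283). The call of NEAT1 held under all settings run, while that of SNHG1 was lost without either RNASeq control or either RIPSeq miR-137 library (edgeR adjusted p from 0.0529 to 0.148). In U251 no member had an unadjusted p under 0.05 or a DESeq2 call for the interaction. The size of this U251 term depended on which single library was dropped. On the log2 scale NEAT1 then lay between -2.47 and -0.39 and MEG3 between -1.48 and 0.07. TUG1 lay between -0.03 and 0.92 and GAS5 between -0.65 and -0.33. Leaving out RIPSeq control replicate 2 gave log2 values of -2.21 for NEAT1, -1.48 for MEG3, 0.92 for TUG1 and -0.65 for GAS5. In that fit the calls over all genes rose widely, so passing it says little about a member.

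The response in total RNA differed between the cell lines for 2 of 7 members, where 25.2% of 15550 genes differed. SNHG1 rose in U251, while its U343 libraries were lower, and the difference was -1.38 ± 0.26 on the log2 scale (U343 minus U251, edgeR adjusted p = 0.00789). TUG1 rose in U251, with a difference of -0.83 ± 0.24 (edgeR adjusted p = 0.0345). No member differed between the lines in the response of PABP-bound RNA, where 3.28% of genes did. NEAT1 came nearest there (log2 1.98, 95% interval 0.33 to 3.63, edgeR adjusted p = 0.168), with 2 members at an unadjusted p under 0.05 and 1 DESeq2 call. Its log2 value was 0.78 or 2.56 without U251 control replicate 1 or 2. Nor did any member differ in PABP-bound against total RNA of the controls, where 3.8% of genes did. SNHG1 had the lowest p in that comparison (-1.19 ± 0.32, edgeR adjusted p = 0.078), with 2 members at an unadjusted p under 0.05 and 1 DESeq2 call. Its log2 value was -0.84 or -1.20 without U251 RIPSeq control replicate 1 or 2. Without either of these U251 controls far more genes passed both tests than with all libraries, so passing there says little about the members. MEG3, with 0 to 4 reads per library in U343, had wide intervals in these tests, from -8.23 to 2.25 in total RNA.

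The genes around the imprinted members were read in the same libraries. RTL1 and MEG8 lie beside MEG3, RTL1 coding for a retrotransposon-derived protein and MEG8 for a further long noncoding RNA. In total RNA of U251 MEG8 rose from 2.43 and 1.86 CPM to 5.91 and 4.52 after the miR-137 mimic (2.4-fold, edgeR adjusted p = 0.00101). RTL1 rose from 3.88 and 1.86 CPM to 6.6 and 8.27 (2.57-fold, edgeR adjusted p = 0.00127). DLK1 and DIO3 of the same region had 8 and 10 reads over all 8 U251 libraries. In U343, where MEG3 was near 0, MEG8 had 0 reads and RTL1 15 over 8 libraries. MEG8 was lower with PABP in the U251 controls (log2 difference -2.75 ± 0.43, edgeR adjusted p = 0.00312), while MEG3 was at 0.50.

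On chromosome 11, CDKN1C, a cell cycle inhibitor, lies near KCNQ1OT1. In total RNA it passed the test in opposite directions in the 2 cell lines, and the difference was not tested. In total RNA of U251 it fell from 2.73 and 3.95 CPM to 1.3 and 1.79 after the mimic (edgeR adjusted p = 0.00771). In PABP-bound RNA of U251 it did not pass, at 5.3 and 6.41 CPM against 5.2 and 5.54 (log2 -0.10, edgeR adjusted p = 0.86). In U343 it rose from 23.4 and 29.1 CPM to 60.6 and 52.7 in total RNA (edgeR adjusted p = 0.017) and from 26.2 and 26.1 to 56.2 and 49.1 in PABP-bound RNA (8.17e-05). PHLDA2, a placental growth regulator, rose from 8.31 and 5.81 CPM to 15.5 and 25.8 in total RNA of U251 (edgeR adjusted p = 0.000109). In PABP-bound RNA of U251 it was at 64.3 and 23.8 against 48 and 48.9 CPM (log2 0.18, edgeR adjusted p = 0.873). IGF2, beside H19, had 4 reads over the 8 U251 libraries and 68 over the 8 U343 libraries.

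Genes of the proteins that build paraspeckles around NEAT1 were 22, all tested. In total RNA of U251, 5 rose and 12 fell after the mimic, with a median log2 difference of -0.40, where 28.7% of all genes rose and 29% fell. In PABP-bound RNA of U251 none passed the edgeR test, with 7 at an unadjusted p under 0.05 and 3 DESeq2 calls. In total RNA of U343 none rose and 8 fell, where 11.7% of all genes fell, and in PABP-bound RNA of U343 1 rose and 13 fell, with a median of -0.43, where 28.5% rose and 27.8% fell. SFPQ, a core paraspeckle protein, fell from 366.8 and 392.0 CPM to 225.3 and 232.3 in PABP-bound RNA of U343.

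Likeness over the 16 libraries was described by Pearson's r of log2 CPM centred within each cell line, among 12528 genes with at least 50 reads on average. MALAT1 and KCNQ1OT1 were most like RSF1 (r = 0.99 for each), and each was among the 3 genes most like the other (r = 0.99). The points share libraries and depth, and for this pair the value follows the gap between the assays. GAS5 was most like MAEA (r = 0.95), TUG1 most like ZNF146 (0.96), MEG3 most like WDR82 (0.92) and NEAT1 most like PPRC1 (0.91). SNHG1 had the lowest best match, RILP at 0.82. Between members, TUG1 and GAS5 ran opposite (r = -0.70), TUG1 and MEG3 together (0.60), and MALAT1 with NEAT1 gave 0.07.

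Promoter windows of 300 bases, from 250 before to 50 after a start, were matched by symbol in RefSeq (GRCh38.p14) for 6 of the 8 members, and NEAT1 and KCNQ1OT1 had no entry. MEG3, TUG1 and SNHG1 are shown, MEG3 because it rose most after the mimic and the others because their response differed between the cell lines. Capitals mark matches, searched on both strands. The letters TATAAA stood for a TATA box. The motif known for binding the factor NF-Y was read as CCAAT. A cAMP response element was read as TGACGTCA, and the core of an interferon-stimulated response element was searched too. MEG3 lies on the plus strand at chr14:100825858-100826157 (the first of 3 overlapping windows), TUG1 on the plus strand at chr22:30969015-30969314 and SNHG1 on the minus strand at chr11:62855836-62856135.
MEG3: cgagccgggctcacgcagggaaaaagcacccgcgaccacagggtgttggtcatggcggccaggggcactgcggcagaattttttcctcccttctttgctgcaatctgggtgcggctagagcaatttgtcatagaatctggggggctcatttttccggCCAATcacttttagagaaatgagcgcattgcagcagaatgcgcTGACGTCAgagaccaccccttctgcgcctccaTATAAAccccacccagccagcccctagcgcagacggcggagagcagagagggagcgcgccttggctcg
TUG1: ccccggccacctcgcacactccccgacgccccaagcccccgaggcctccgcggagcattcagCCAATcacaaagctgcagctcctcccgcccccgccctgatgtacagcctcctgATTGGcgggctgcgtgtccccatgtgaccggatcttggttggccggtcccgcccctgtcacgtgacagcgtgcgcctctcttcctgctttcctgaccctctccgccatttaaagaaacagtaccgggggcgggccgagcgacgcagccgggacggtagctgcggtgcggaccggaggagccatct
SNHG1: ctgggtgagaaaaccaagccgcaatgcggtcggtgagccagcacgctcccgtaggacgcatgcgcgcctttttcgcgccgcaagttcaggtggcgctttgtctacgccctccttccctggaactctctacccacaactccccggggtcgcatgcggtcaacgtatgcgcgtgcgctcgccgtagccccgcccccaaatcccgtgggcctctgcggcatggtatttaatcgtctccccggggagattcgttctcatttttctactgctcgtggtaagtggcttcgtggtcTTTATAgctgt
MEG3 held CCAAT at -93, TGACGTCA at -50 and TATAAA at -18 from this start. TGACGTCA is in 1.85% of 35116 windows, TATAAA in 11.5% and CCAAT in 34.6%. TUG1 held CCAAT at 2 places, and SNHG1 held TATAAA after its start, on the other strand. The interferon-stimulated core, present in 3.57% of windows, matched in none of the members' windows. A match describes letters, not binding.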

How the data were processed

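The deposited values are raw read counts per gene, which the authors obtained by aligning reads to hg18 with RMAP and merging the RefSeq transcripts of each gene into 1. Libraries were grouped by the cell line, assay and mimic in their titles, and the additional U251 replicate that the methods mention was not analysed here. The U251 tables list SLC35E2 on 2 lines, of which the first was kept, and their strand column holds 1 value and was not used. Members and lists were chosen with earlier results of these data known. All genes were fitted with edgeR 4.0.16 (quasi-likelihood, TMM, filterByExpr) within each experiment for miR-137 against control, and over the 8 or 16 libraries concerned for the other contrasts. Benjamini-Hochberg adjustment covered all genes tested, with a threshold of 0.05. The SE is the absolute log2 fold change over the root of F, and 95% intervals use the t quantile at the median degrees of freedom that F and p imply. CPM displays use TMM factors over a cell line's 8 libraries, so their ratios differ slightly from the fitted folds. Groups of 2 libraries that do not overlap are described, not tested, and the share of all genes that do so is not given. The study's Fisher rule was two-sided. Besides the members, the genes given are at most the 2 largest rises and 2 largest falls past the threshold in a list. The snoRNAs, the imprinted neighbours and the 3 genes most like a member may be given too. Chosen after their values were seen were the 8 glioma cell markers and CDH5. On simulated counts with 200 genes changed 4-fold, edgeR recovered 95.5% in U251 RNASeq and 29% in U251 RIPSeq, 87% in U343 RNASeq and 98% in U343 RIPSeq. False calls were 18 of 209 in U251 RNASeq, 1 of 59 in U251 RIPSeq, 15 of 189 in U343 RNASeq and 29 of 225 in U343 RIPSeq. Alternatives used DESeq2 1.42.0, other scalings and filters, a replicate block, other sets of libraries, and each library left out. Transcripts were not searched for miR-137 sites, since no transcript sequence was used here.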

Additional observations from a re-analysis of the deposited data

Results flagged for a closer look

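The response of total RNA to the miR-137 mimic differed between the cell lines for TUG1 and SNHG1, by an interaction term in edgeR over the 8 RNASeq libraries. For SNHG1 the difference (U343 minus U251) was -1.38 on the log2 scale, with 45.4 and 49.7 CPM in the U251 controls, 60.6 and 72.8 after the mimic, 27.9 and 28.2 in the U343 controls and 11.8 and 17.9 after the mimic. For TUG1 it was -0.83, with 156.3 and 156.5 CPM rising to 335.0 and 234.3 in U251, and 58.7 and 56.1 against 56 and 59.3 in U343. SNHG1 kept its call without any 1 of the 8 libraries. TUG1 lost it when either U251 control, either U343 control or U251 miR-137 replicate 1 was left out, with adjusted p from 0.0772 to 0.127. The cell line and the cDNA kit cannot be told apart in these differences.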

How the results depend on the processing

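MALAT1 and KCNQ1OT1 stayed lower in PABP-bound RNA, and MEG3 stayed higher after the mimic in U251 total RNA, under the alternatives run for them. Counts of members called changed as follows. For miR-137 against control in U251 RNASeq, 6 became 2 without a filter on low counts and 1 in the fit of all 8 libraries. In U251 RIPSeq 0 became 2 with DESeq2, 1 with the replicate number as a block and 3 in the fit of all 8 libraries, and in U343 RNASeq 0 became 1 with DESeq2, with library totals, with the replicate block and in the fit of all 8 libraries. For U251 RIPSeq against RNASeq after miR-137, 2 became 5 in the fit of the 4 libraries alone. DESeq2 called 2 for the U343 interaction, 1 for the cell line difference of RIPSeq against RNASeq and 1 for that of the response in RIPSeq, where edgeR called 0. The study's rule gave 2 in U251 RNASeq, 3 in U251 RIPSeq and 1 in U343 RNASeq at an odds ratio over 1.5, and 2 in each U251 experiment for 3 of the 4 pairs.

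Leaving out 1 library gave counts from 0 to 7 for U251 RIPSeq miR-137 against control, 2 to 7 for U251 RIPSeq against RNASeq in the controls and 2 to 5 after miR-137, and 0 to 4 for the U251 interaction. It gave 0 to 3 for U343 RNASeq miR-137 against control, 0 to 2 for the U343 interaction, 0 to 6 for the cell line difference of RIPSeq against RNASeq, 1 to 2 for that of the response in RNASeq and 0 to 6 in RIPSeq. The study's rule ranged from 1 to 3, 1 to 2 and 0 to 1 in U251 RNASeq, U251 RIPSeq and U343 RNASeq. NEAT1 in U251 RIPSeq ranged from -0.87 to 0.83 on the log2 scale and reversed without control replicate 1. These fits assume that a lone library varies like the others. The edgeR calls over all genes moved in them too, so the counts say little about the members. The causes of the changes were not tested. The replicate numbers share no stated batch and do not pair the samples. For U343 RIPSeq against RNASeq in the controls, where same-numbered libraries deviated oppositely (r = -0.17), a crossed block, added after the data were seen, called 3 members in place of 2.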

Other observations

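Of the long noncoding RNAs outside the members, 5 of the 19 tested rose after the miR-137 mimic in total RNA of U251 and 7 fell, shares near those of all genes (28.7% and 29%). In PABP-bound RNA of U251 none of 20 passed the test in edgeR, with 3 at an unadjusted p under 0.05 and 0 DESeq2 calls. DANCR belongs to the separate list of snoRNA hosts and is listed under its older symbol KIAA0114. In total RNA of U251 it fell from 156.5 and 192.6 CPM to 14.2 and 15.3 (log2 -3.58 ± 0.16, edgeR adjusted p = 8.6e-10). In PABP-bound RNA of U343 it fell from 138.5 and 130.3 CPM to 22 and 18.7 (-2.71 ± 0.10, edgeR adjusted p = 1.59e-06). OIP5-AS1, listed as LOC729082, fell in U343, from 33.5 and 36 CPM to 16.2 and 15.4 in total RNA (-1.12 ± 0.11, edgeR adjusted p = 0.0088) and from 35 and 32 to 11.6 and 11 in PABP-bound RNA (-1.55 ± 0.10, 1.48e-05). SOX2OT, which overlaps the gene of the stem cell factor SOX2, rose in total RNA of U343 from 135.0 and 150.6 CPM to 275.4 and 268.4 (0.95 ± 0.10, edgeR adjusted p = 0.0112).

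Of the messenger RNAs of the poly(A) binding proteins themselves, 3 of the 5 tested were higher with PABP in the U251 controls and 5 of 6 in the U343 controls, where 22.3% and 18.2% of all genes were. PABPC1 was at 235.7 and 196.4 CPM in total RNA and at 1151.6 and 1292.0 in PABP-bound RNA of the U251 controls (log2 2.50 ± 0.19, edgeR adjusted p = 0.000258), and at 82.6 and 89.4 against 432.4 and 396.1 in the U343 controls (2.27 ± 0.09, 7.32e-05).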
